A study of Mus musculus with 6 samples.

Results

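Plasma and whole blood of control mice were compared array against array, to see which LncRNAs and mRNAs were higher or lower in spun and filtered plasma than in whole blood. The comparison rests on 2 of the 6 samples of the series, control whole blood and control plasma, which were chosen by their labels and not by any measured value. Each sample was a mixture of RNA from 5 male C57BL/6J mice hybridised once to an Arraystar mouse LncRNA array of Agilent design. The methods give that number for the mixtures but a larger one for the plasma that went into extraction, so the number of mice behind the plasma arrays is not settled. The control mice had received saline daily for 1 week, and their age was not given in the sources used here. Blood was taken by removing the eyeballs, and plasma was EDTA blood that was spun, spun again at a higher speed and passed through a filter with pores smaller than a cell. Mice with HF (heart failure), which had received isoproterenol for the same time, gave whole blood and plasma arrays of their own, and these served as a separate pair. Control plasma is called by its label throughout, although its red cell, platelet and white cell transcripts stood close to the levels of control whole blood. The other 2 samples of the series were hearts.

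A long noncoding RNA (LncRNA) is a long transcript without a known protein product, and many LncRNAs lie in the intergenic stretches between coding genes. RNA found outside cells in blood is carried by vesicles, lipoproteins and protein complexes, which shield it from the nucleases of plasma, while red cells, platelets and white cells hold the great bulk of the RNA in whole blood. The mRNAs of haemoglobin and of platelet glycoproteins are therefore commonly read as signs of cells, or of what cells have shed, in a plasma sample.

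Of the 59709 probes that were not negative controls, 7536 were taken as LncRNA probes and 4093 as mRNA probes of 3470 gene symbols. LncRNA probes were taken by the form of their names, which leaves out many other LncRNAs of the study's first LncRNA list. A probe counted as detected where most of its spots were well above background and not flagged as outliers. In control whole blood 25.0% of probes were detected and in control plasma 33.5%, and 2.92% and 4.33% of the 1200 spots of negative control probes were well above background. In control whole blood 30411 of 61194 spots held the same lowest signal, so dim spots of that array have no order. The lowest detected log2 level was 5.78 in control whole blood and 4.64 in control plasma, and no spot of either array was saturated. Both control arrays came from 1 scan of 1 slide, and both HF blood arrays from another, so slide and HF cannot be told apart. With 1 array per condition no test between conditions was possible, and the error given with each difference is the error within the arrays only, as the scanning software estimated it for each spot. Quantile normalization gives every array the same distribution of levels, so a level says how a transcript stood within its own sample and not how much RNA a volume of plasma or blood held.

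The ultraconserved LncRNAs with quantitative PCR primers in the study are shown first, with those primers. The first is minus-strand sequence of chromosome 17 (mm9 52604753 to 52604970), and the second is plus-strand sequence of chromosome 11 (mm9 31833618 to 31833847). Both are intergenic, and they are called here by their chromosome. The levels given below come from array probes, and the primers do not define what those probes read. The primers are written 5′ to 3′ in lower case, and no base is marked.
Chromosome 17 ultraconserved transcript, sense primer: attagttgctgaactcagagaagg
Chromosome 17 ultraconserved transcript, antisense primer: tgcttgctaatgctttattgtctc
Chromosome 11 ultraconserved transcript, sense primer: cactgacgggatatctctttatgc
Chromosome 11 ultraconserved transcript, antisense primer: aaatgtatgcagagcactgaaatg

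The chromosome 17 ultraconserved transcript had a log2 level of 7.86 in control whole blood and 6.84 in control plasma. It was thus 2.02-fold lower in control plasma, a log2 difference of -1.01 with an error of 0.23 and close to the threshold of 2-fold. In the HF pair its log2 level was 7.62 in whole blood and 12.52 in plasma, a difference of 4.89 in the opposite direction. The chromosome 11 ultraconserved transcript had a log2 level of 9.57 in control whole blood and 9.32 in control plasma, a difference of -0.25 with an error of 0.21. It was not detected in HF whole blood or HF plasma. Control plasma and control whole blood therefore lay within about 2-fold of each other for both transcripts.

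Across all probes the array of control plasma looked much like that of control whole blood. Of 14077 probes detected on both, 94.3% lay within 2-fold, 318 (2.26%) were higher in control plasma by at least 2-fold and 491 (3.49%) were lower by as much. The median log2 difference was -0.02 and the standard deviation across probes 0.54. Levels correlated with a Pearson r of 0.97 over these probes, which share both arrays and the same slide. For 75.1% of the probes the difference was smaller than 2 combined errors of the pair. In HF mice the same contrast, on arrays that shared no sample with the control pair, gave 35.8% higher and 34.2% lower among 11258 probes, with a standard deviation of 2.73 and an r of 0.43.

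**Figure D1:**
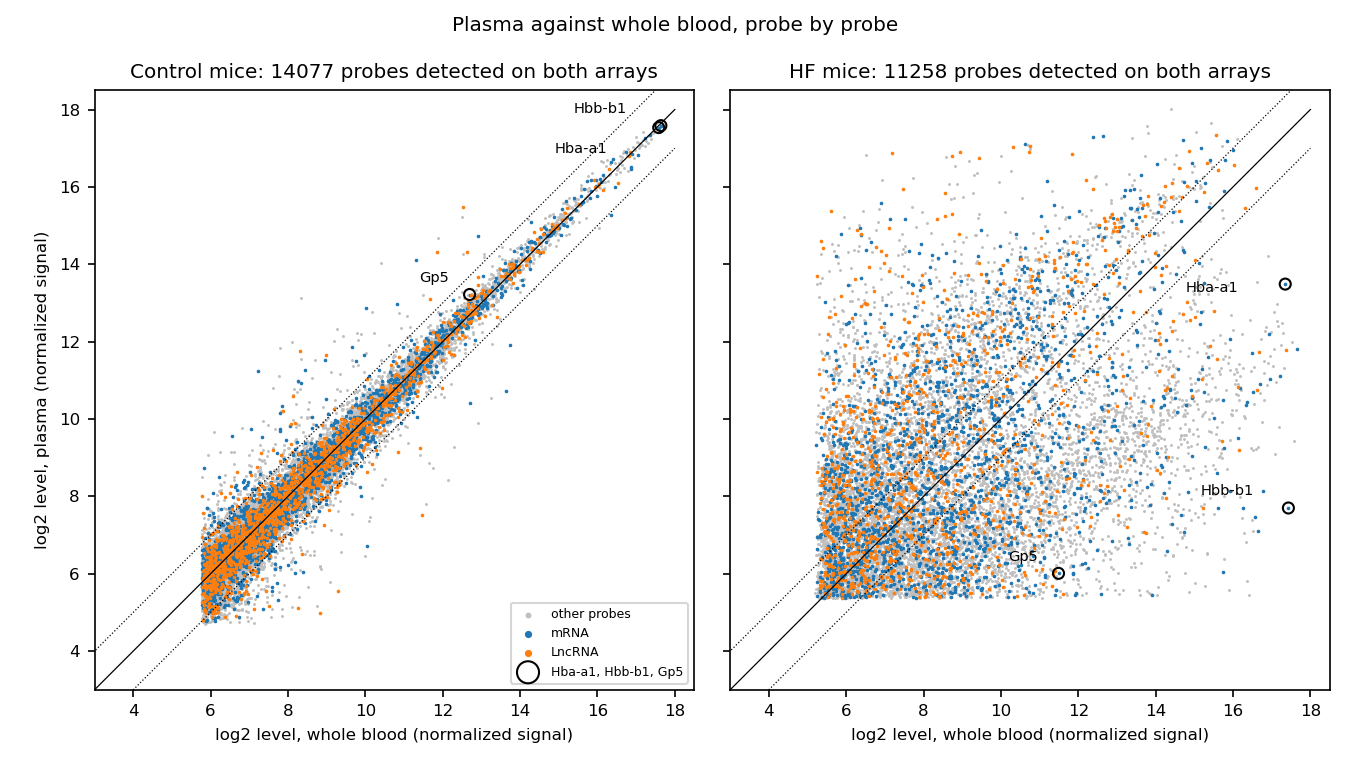
The log2 level of each probe in whole blood (horizontal axis) and plasma (vertical axis), for control mice on the left and HF mice on the right. Points are probes detected on both arrays of the pair, the solid line marks equal levels and the dotted lines 2-fold. The 14077 points of control mice hug the line of equality, and circled Hba-a1, Hbb-b1 and Gp5 lie within 2-fold there and well below the line in HF mice.

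The red cell and platelet markers were as high in control plasma as in control whole blood. Hbb-b1, a beta chain of haemoglobin, had a log2 level of 17.64 in control whole blood and 17.58 in control plasma, a difference of -0.06 with an error of 0.20. Hba-a1, an alpha chain, stood at 17.58 and 17.53, a difference of -0.05 with an error of 0.20. Copies of the haemoglobin genes are nearly identical, so these probes may read more than 1 copy, and the accession given for Hbb-b1 is now assigned to Hbb-bt. Gp5, a subunit of the platelet receptor for von Willebrand factor, had a log2 level of 12.70 in control whole blood and 13.22 in control plasma, and was 1.44-fold higher in plasma with an error of 0.20 on the log2 scale. All 3 probes lay within 2-fold.

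In HF mice these probes separated the samples. Hbb-b1 had a log2 level of 17.43 in whole blood but 7.70 in plasma of HF mice, a difference of -9.73. Hba-a1 stood at 17.35 and 13.49, and Gp5 at 11.49 and 6.01, differences of -3.86 and -5.48. The sample labelled control plasma thus held transcripts of red cells and platelets at the levels of control whole blood, which goes against its label. Carried-over cells, RNA that cells had released, and a mixture that was exchanged or used for both arrays cannot be told apart from these files. In such mixed samples, fewer cells of a type and less RNA per cell cannot be told apart. What gave these levels was not tested.

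The whole list of red cell genes followed the markers in control mice. Each listed gene was read by 1 probe, the one with the highest mean level. Of 25 red cell genes, 21 were detected on both control arrays, 1 was at least 2-fold higher in control plasma, none was lower, and the median log2 difference was -0.03, beside -0.02 over all probes. Alas2, the enzyme that starts haem synthesis in red cell precursors, had a log2 level of 13.95 in control whole blood and 13.81 in control plasma. Gata1, the transcription factor of the red cell and platelet lineages, stood at 11.60 and 11.40, and Bnip3l, needed to clear mitochondria from maturing red cells, at 17.35 on both arrays. The member at least 2-fold higher was Hbb-bh1, an embryonic haemoglobin chain, with 6.55 and 7.74. The summed signal of the list in control plasma was 0.96 of that in control whole blood, whereas in HF mice whole blood held 12.5 times the sum of plasma. Over all 23 probes of these genes detected on both control arrays 1 was lower, a second probe of Add1, a protein of the red cell membrane skeleton, at 6.78 and 5.62.

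Most platelet genes detected on both control arrays lay within 2-fold, with 2 exceptions. Of 11, 10 were detected on both control arrays, none was higher, 2 (20%) were lower beside 3.49% of all probes, and the median log2 difference was -0.23. Gp6, the platelet receptor for collagen, had a log2 level of 9.65 in control whole blood and 8.61 in control plasma, a difference of -1.04 with an error of 0.21. Ly6g6f, a platelet surface protein, stood at 6.07 and 4.85, a difference of -1.23 with an error of 0.42. Mmrn1, a protein of platelet granules, lay within 2-fold at 9.90 and 9.68.

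White cell genes detected on both control arrays mostly lay within 2-fold, but few neutrophil genes were so detected. Of 17 neutrophil genes 5 were detected on both arrays, and 1 was lower, Cyba, a subunit of the oxidase that makes superoxide, at 8.97 and 7.79. S100a9, a major cytosolic protein of neutrophils, had a log2 level of 9.39 in control whole blood and 9.77 in control plasma. A further 5 neutrophil genes were detected in control plasma only, as were 9.53% of all probes. None of these 5 was at least 2-fold above both its own whole blood level and the lowest detected level of that array. All 6 detected monocyte genes, all 9 detected B cell genes and all 3 detected NK cell genes lay within 2-fold. Klrk1, an activating receptor of NK cells, stood at 13.09 and 13.04.

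The T cell list was within 2-fold but for 1 gene. Cd3e, a chain of the T cell receptor complex, had a log2 level of 9.30 in control whole blood and 9.16 in control plasma. Cd6, a surface receptor of T cells, had 6.84 and 8.37, a difference of 1.53 with an error of 0.25. The median over the 7 T cell genes detected on both arrays was 0.11.

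Housekeeping groups, which every cell uses, did not separate the 2 control samples. None of 19 cytosolic ribosomal protein genes detected on both arrays passed 2-fold in either direction, with a median log2 difference of 0.07 and a range of -0.65 to 0.90. None of 13 genes of oxidative phosphorylation did so, with a median of 0.11 and a range of -0.59 to 0.33. A further probe of Ndufs1, a subunit of complex I that was counted by a brighter probe, was lower in control plasma at 6.35 and 5.13. In HF mice 11 of 14 ribosomal protein genes and 13 of 14 oxidative phosphorylation genes were at least 2-fold lower in plasma, beside 34.2% of all probes. Cox6a1, a subunit of cytochrome c oxidase, had a log2 level of 15.28 in control whole blood and 15.18 in control plasma.

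A second view of precision came from 15 probes of common reference transcripts that are printed 20 times on each array. Of these, 11 were detected on both control arrays, with log2 differences from -0.16 to 0.44 and a median of 0.16. The standard deviation between spots of 1 probe had a median of 0.15 in control whole blood and 0.17 in control plasma. B2m, the light chain of class I histocompatibility molecules, had a log2 level of 16.46 and 16.63, and Actb, a cytoskeletal actin, 14.37 and 14.43. Of the 11 differences 8 lay above 0, and the largest, of Hprt, was 0.44 with a standard error between spots of 0.045. All 11 thus lay within 2-fold, but the spread between spots does not show how far repeat arrays would differ.

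Translation factors, by contrast, held 2 members higher in control plasma among 9 detected on both arrays, with a median of 0.05. Eif4e2, a cap-binding protein, had a log2 level of 10.83 in control whole blood and 12.98 in control plasma, a difference of 2.15 with an error of 0.20. Eif2a, an initiation factor, stood at 7.25 and 8.34, a difference of 1.09. Summed over the list, control plasma held 2.25 times the signal of control whole blood, but without Eif4e2 it held 1.002 times as much. Over all 20 lists, 281 genes had a probe, 189 were detected on both control arrays, 9 (4.76%) were higher and 4 (2.12%) lower, beside 2.26% and 3.49% of all probes, with a median of 0.01.

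Genes of solid tissues differed in single members. Acta1, the actin of skeletal muscle, had a log2 level of 6.55 in control whole blood and 9.55 in control plasma and was 7.99-fold higher in plasma, with an error of 0.27 on the log2 scale. The other muscle genes detected on both arrays stayed close, with Tnnt3, a troponin of fast muscle, at 10.60 and 10.40 and Atp2a1, its calcium pump, at 7.56 on both arrays. Among 7 eye genes detected on both arrays 1 was higher, Bfsp2, a filament protein of the lens, at 6.27 and 7.68, and Crygc, a lens crystallin, lay within 2-fold at 10.26 and 9.40. The median of the eye list was 0.30.

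Of 15 heart muscle genes 5 were detected on both control arrays, and Tnnt2, a troponin of heart muscle, was lower in control plasma at 6.94 and 5.71. The probe of Myh6, the main myosin of the mouse heart, stood at 14.47 and 14.36 in the blood arrays and at 10.88 in control heart, so it does not mark heart tissue here. Among hepatocyte genes Apoe, the apolipoprotein of remnant particles, was higher in control plasma with 9.05 and 10.14, and the other 5 detected on both arrays lay within 2-fold. Egr1, an immediate early transcription factor, was the only 1 of 9 detected immediate early and stress genes past 2-fold, at 6.97 and 8.38. Among genes detected on both arrays, none of the basophil and eosinophil, endothelial or interferon response lists passed 2-fold. Of 44 odorant and pheromone receptor genes detected on both arrays, 1 was higher.

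**Figure D2:**
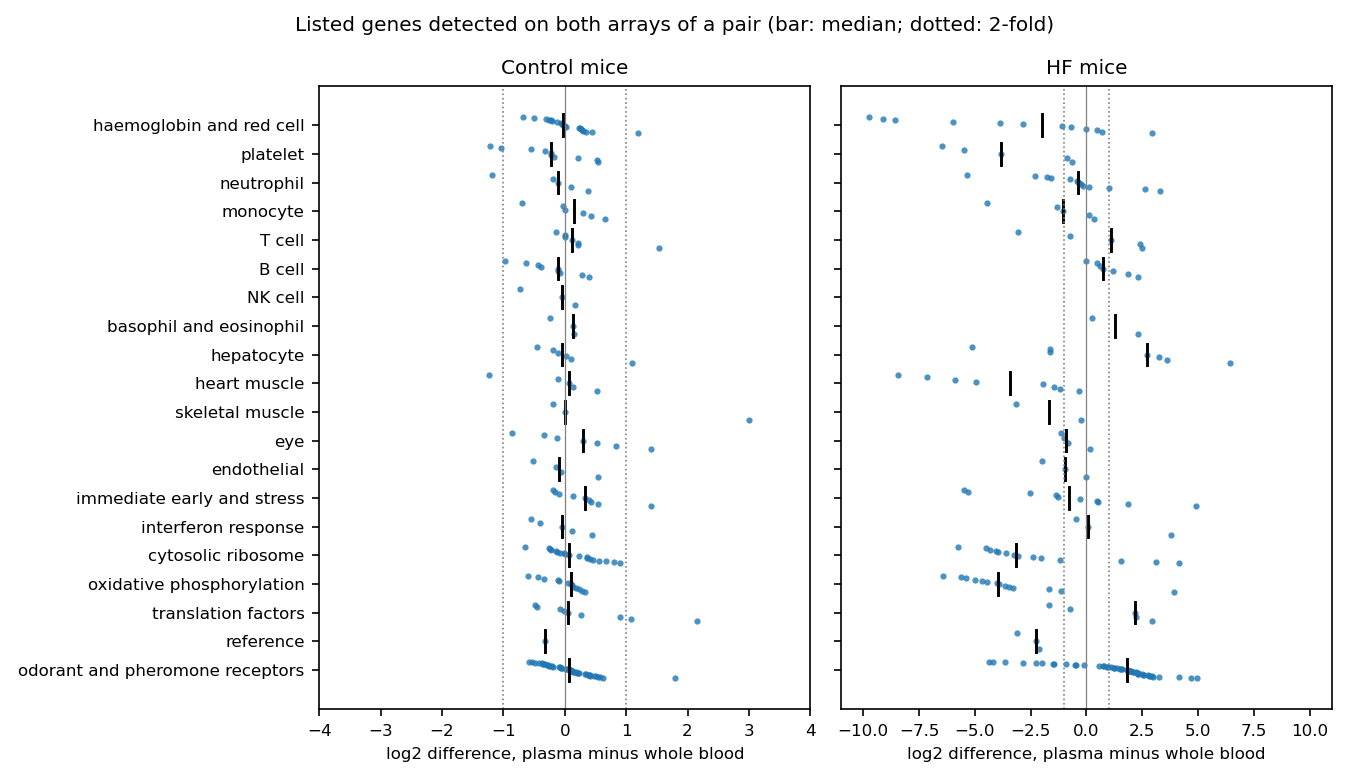
Log2 difference, plasma minus whole blood, of each listed gene detected on both arrays of a pair, in control mice on the left and HF mice on the right (the horizontal scales differ). Each point is 1 gene, bars are list medians and dotted lines mark 2-fold. Red cell genes centre on -0.03 in control mice and range from -9.73 to 2.93 in HF mice.

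Turning to LncRNAs, 1428 of 7536 probes were detected in control whole blood, 1929 in control plasma and 1331 in both. Of these 1331, 34 (2.55%) were at least 2-fold above whole blood in control plasma and 51 (3.83%) at least 2-fold below it, with a median log2 difference of -0.03. These shares lay near those of all probes, 2.26% and 3.49%. The 7536 probes leave out many LncRNAs of the study's first LncRNA list. Of 2702 probes of that list detected on both control arrays, 63 were higher and 76 lower. Background correction by normexp moved the split, from 40.0% to 56.7% higher among the probes past 2-fold, with 17 higher and 13 lower. Just inside the threshold, MM9LINCRNAEXON10544- was 2.01-fold higher and MM9LINCRNAEXON10584+ 2.0003-fold lower, and just outside it were MM9LINCRNAEXON10270- and humanlincRNA2129+, both at 1.99-fold.

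The LncRNAs came from several catalogues. Of 752 lincRNA exon probes detected on both arrays 21 were higher and 28 lower. Of 221 probes named for ESTs or cDNAs 7 were higher and 5 lower, and of 94 chromatin-domain lincRNAs 3 were higher and 1 lower. Of 153 mouse counterparts of human lincRNAs none was higher and 8 (5.23%) were lower. Of 111 ultraconserved transcripts 3 were higher and 9 (8.11%) lower. Over all probes 2.26% were higher and 3.49% lower. Because of the unequal lowest detected levels, a probe 2-fold higher in control plasma needed a mean log2 level of at least 6.28. A lower one needed only the lowest detected levels, 5.78 in control whole blood and 4.64 in control plasma. The dimmest probes could therefore pass downward only.

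The 9 lower ultraconserved transcripts reached from uc.425-, at 6.65 in control whole blood and 4.91 in control plasma, to the chromosome 17 transcript described first. All but uc.299+, uc.335+ and that transcript had a log2 level under 7 in control whole blood. The 3 higher were uc.239+, at 7.62 and 9.20, uc.163-, at 5.83 and 7.18, and uc.299-, at 5.78 and 6.96. The 2 strands of uc.299 differed in opposite directions, since uc.299+ stood at 8.38 in control whole blood and 7.35 in control plasma.

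Among LncRNAs detected on both control arrays, the one furthest above whole blood was MM9LINCRNAEXON11901-, a minus-strand exon of chromosome 10 (mm9 60481790 to 60482017). It had a log2 level of 8.32 in control whole blood and 11.75 in control plasma, and was 10.8-fold higher in plasma, with an error of 0.21 on the log2 scale. In HF mice it stood at 11.40 in whole blood and 6.07 in plasma, 40.3-fold lower in plasma. MM9LINCRNAEXON11792+ had 12.54 in control whole blood and 15.48 in control plasma, and was 7.67-fold higher. It was also higher in HF plasma, at 14.43 and 16.11. Mouse lincRNA mouselincRNA0078+, of the chromatin-domain catalogue, had 8.99 and 11.64 and was 6.29-fold higher, and in HF mice it stood at 10.54 and 11.58. MM9LINCRNAEXON11955- had 11.85 and 14.33 in control mice, 5.57-fold higher, and 13.06 and 14.97 in HF mice. These last 3 were thus higher in plasma in both pairs. Being higher in HF plasma was common among LncRNAs, however. Of 873 LncRNA probes detected throughout the 4 blood arrays, 47.1% passed 2-fold upward in the HF pair.

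The next 6 had folds from 5.51 down to 3.51. BQ945390, named for an expressed sequence tag, stood at 8.12 and 10.58 in control mice and at 9.57 and 9.73 in HF mice. MM9LINCRNAEXON10387- stood at 7.88 and 10.22 in control mice and at 7.79 and 10.94 in HF mice, higher in plasma both times. The other four were lincRNA exon probes, MM9LINCRNAEXON10927+, MM9LINCRNAEXON11859+, MM9LINCRNAEXON10232+ and MM9LINCRNAEXON11203-, with log2 differences of 2.23, 1.95, 1.81 and 1.81 in control mice. The probe of MM9LINCRNAEXON11203- reads chromosome 17 from 17664027 to 17664470 on the minus strand, and it was not detected in HF plasma. All 10 stayed at least 2-fold higher in control plasma under each of the 4 other scalings, at 1.11 or more on the log2 scale.

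AK030313, a cDNA, lay furthest below whole blood among LncRNAs detected on both control arrays. Its log2 level was 11.47 in control whole blood and 7.52 in control plasma, and it was 15.5-fold lower in plasma with an error of 0.21 on the log2 scale. In HF mice it was lower in plasma as well, at 10.19 and 7.01. The lincRNA mouselincRNA0315- stood at 8.83 and 4.98, 14.5-fold lower, but at 6.73 and 8.44 in HF mice, where plasma was higher. MM9LINCRNAEXON11320-, on chromosome 16 from 91189138 to 91189319 on the minus strand, stood at 9.29 and 5.56, 13.3-fold lower, and it was not detected in HF whole blood. These 3 had differences of -3.73 or beyond.

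Next came BG082317, on chromosome 2 from 117024428 to 117025010 on the minus strand, at 8.27 and 5.12, and CJ065335, on chromosome 8 from 35143802 to 35144482 on the plus strand, at 7.51 and 5.16. Neither was detected in HF whole blood or HF plasma. The human counterpart humanlincRNA1398- stood at 11.42 and 9.25, 4.51-fold lower in control plasma, and at 11.59 and 12.78 in HF mice. The rest of the 10 lowest LncRNAs were humanlincRNA2262+ on chromosome 15, MM9LINCRNAEXON10681+ and MM9LINCRNAEXON10664- on chromosome 4, and uc.425-, with differences from -2.04 to -1.74. With normexp only 6 of these 10 stayed past 2-fold, and uc.425- came to -0.24, while the other 3 scalings kept all 10.

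**Figure D3:**
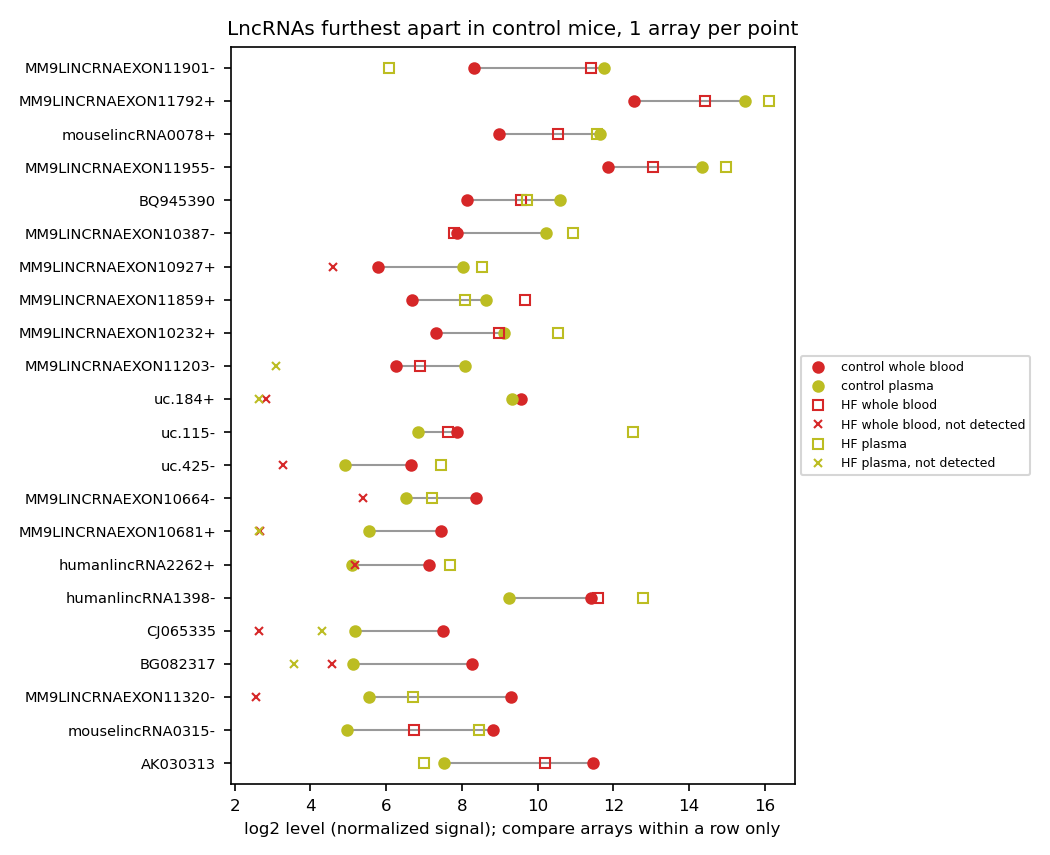
Log2 level in each of the 4 blood arrays (horizontal axis) of the 10 highest and 10 lowest LncRNAs in control plasma among those detected on both control arrays, and of both ultraconserved transcripts with primers. Filled circles joined by a line are control whole blood and control plasma, open squares are HF arrays and crosses mark HF arrays where the probe was not detected. MM9LINCRNAEXON11901- turns from 10.8-fold higher in control plasma to 40.3-fold lower in HF plasma, while MM9LINCRNAEXON11792+ is higher in plasma in both.

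Many more LncRNA probes were detected in control plasma only than in control whole blood only. The numbers were 578 and 82, where over all probes 9.53% were detected in control plasma only and 1.17% in control whole blood only. Of the 578, 439 (76.0%) had a plasma level under 5.78, the lowest detected level of the whole blood array. A bound was set for each, taking the higher of the undetected probe's own level and the lowest detected level of its array. By this bound 23 of the former stood at least 2-fold higher in plasma and 81 of the latter at least 2-fold higher in whole blood, beside 0.308% and 1.15% over all probes.

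BE691366, an expressed sequence tag, was well above background in control plasma at a log2 level of 11.55 and not in control whole blood, so it was at least 54.7-fold higher in plasma. MM9LINCRNAEXON11288-, on chromosome 16 from 34569142 to 34569249, was at least 46.7-fold higher with a level of 11.32, and MM9LINCRNAEXON11907- at least 27.7-fold higher with 10.57. In the other direction MM9LINCRNAEXON11592+, on chromosome 13 from 78343047 to 78343263, had a level of 10.24 in control whole blood and was at least 48.7-fold lower in control plasma. For humanlincRNA1468+ the bound was at least 13.8-fold and for MM9LINCRNAEXON11793- at least 13.1-fold. None of these last 3 was detected in HF whole blood or HF plasma.

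The counts of mRNAs were close to those of all probes. Of 2535 mRNA probes detected on both control arrays, 68 (2.68%) passed 2-fold upward in control plasma and 72 (2.84%) downward, with a median log2 difference of -0.01. Normexp moved the split from 48.6% to 68.6% higher, with 35 higher and 16 lower. Just inside the threshold were Ntf3, 2.01-fold higher, and Eml1, 2.01-fold lower, and just outside it was Ttc23, 1.998-fold higher.

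Among mRNAs detected on both control arrays, Hcn4, the pacemaker channel of the sinus node, was furthest above whole blood. It had a log2 level of 7.22 in control whole blood and 11.24 in control plasma, and was 16.2-fold higher in plasma with an error of 0.23 on the log2 scale. In HF mice it was higher in plasma too, at 7.63 and 10.58. Nap1l1, a histone chaperone, stood at 10.02 and 12.86 in control mice and at 10.47 and 13.60 in HF mice. Ccdc116, a coiled-coil protein, stood at 8.35 and 10.92 in control mice, and its HF difference was 1.83. These 3 were higher in plasma in both pairs. Many other mRNAs were higher in HF plasma too. Of 1664 mRNA probes detected throughout the 4 blood arrays, 39.6% passed 2-fold upward in the HF pair.

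Ptbp1, a splicing repressor that binds pyrimidine tracts, was 6.98-fold higher in control plasma by 1 probe, at 11.32 and 14.12, and that probe was also higher in HF plasma, at 12.68 and 14.69. Its second probe stood at 8.89 in control whole blood and 8.45 in control plasma, a difference of -0.44. The 2 probes of Ptbp1 therefore disagreed. Vegfa, the main growth factor of blood vessels, stood at 8.97 and 11.52 by 1 probe, 5.85-fold higher in control plasma. Its other probe, at 5.91 in control whole blood, was not detected in control plasma, where its level was 4.13. The 2 probes of Vegfa thus pointed in opposite directions. In HF mice the first stood at 12.87 in whole blood and 10.67 in plasma.

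Acta1, the muscle actin described with the tissue lists, was also among the 10 highest mRNAs, as was Acta2. In HF mice Acta1 had a log2 level of 10.05 in whole blood and was not detected in plasma. Acta2, the actin of smooth muscle, had a log2 level of 7.03 in control whole blood and 9.74 in control plasma, 6.52-fold higher, and in HF mice 11.91 in whole blood and 8.58 in plasma. Mtus1, a microtubule-associated tumour suppressor, stood at 8.45 and 11.28 in control mice and at 11.41 and 5.59 in HF mice. Mov10, an RNA helicase, stood at 8.27 and 10.98 in control mice and at 10.56 and 7.15 in HF mice. Acta2, Mtus1, Mov10 and Vegfa were thus higher in plasma of control mice and lower in plasma of HF mice. Trpc2, a channel of the vomeronasal organ, stood at 5.83 and 8.74 in control mice and was within 2-fold in HF mice.

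Sept9, a filament-forming GTPase that is now named Septin9, was furthest below whole blood among mRNAs detected on both control arrays. It had a log2 level of 10.04 in control whole blood and 6.71 in control plasma, a difference of -3.33 with an error of 0.22. In HF mice it was lower in plasma too, with a difference of -4.70. Cnih3, an auxiliary subunit of AMPA receptors, stood at 13.63 and 10.74, 7.44-fold lower in control plasma, and at 13.02 and 14.57 in HF mice. Stmn3, a microtubule-destabilising protein of neurons, stood at 12.69 and 10.41 in control mice and within 2-fold in HF mice.

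Lyn and Smad7 were also among the 10 lowest mRNAs. Lyn, a tyrosine kinase of B cells and myeloid cells, had a log2 level of 8.17 in control whole blood and 6.01 in control plasma, and was not detected on either HF blood array. Smad7, an inhibitor of TGF-beta signalling, stood at 8.38 and 6.04. Acp5, the tartrate-resistant acid phosphatase of osteoclasts and macrophages, was 3.84-fold lower by the probe furthest apart, at 7.71 and 5.77, while its probe at 12.06 in control whole blood stood at 11.86 in control plasma. The rest of the 10 lowest mRNAs were LOC100302688, 1600014C10Rik, Folr1, a folate receptor, and Gabra2, a subunit of the GABA receptor, with differences from -2.43 to -1.92. With normexp 6 of the 10 lowest and all 10 highest mRNAs stayed past 2-fold.

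**Figure D4:**
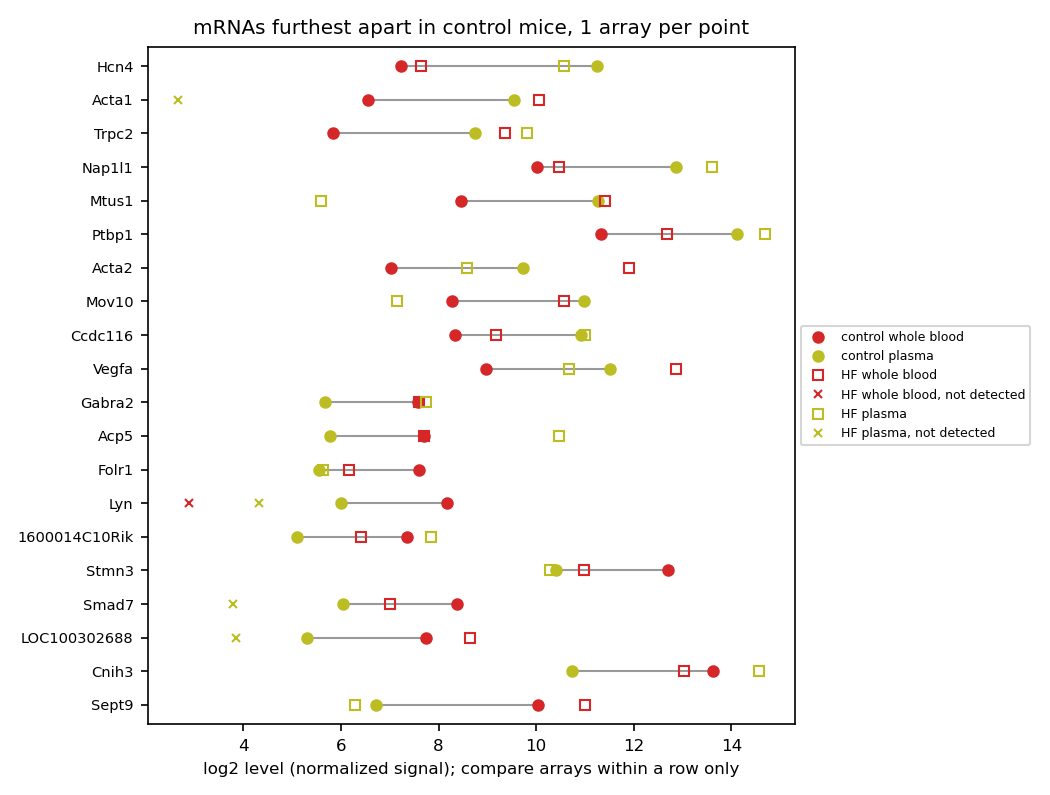
Log2 level in each of the 4 blood arrays (horizontal axis) of the 10 highest and 10 lowest mRNAs in control plasma among those detected on both control arrays, with symbols as for the LncRNAs. Hcn4, Nap1l1 and Ptbp1 are higher in plasma in control and HF mice, Sept9 is lower in both, and Mtus1 and Mov10 change side.

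Of 4093 mRNA probes, 791 were detected in control plasma only and 71 in control whole blood only. Over all probes the shares were 9.53% and 1.17%. Of the 791, 541 (68.4%) had a plasma level under 5.78, the lowest detected level of the whole blood array. By the bound 30 of the 791 and 69 of the 71 differed by at least 2-fold, beside 0.308% and 1.15% over all probes. Ctgf, a matricellular protein induced by TGF-beta and now named Ccn2, had a log2 level of 8.56 in control plasma and was at least 6.90-fold higher there. In HF mice Ctgf stood at 13.58 in whole blood and was not detected in plasma. D9Ertd402e, now named Tcaim, was at least 7.86-fold higher in control plasma and was not detected on either HF blood array. Hira, a histone chaperone, stood at 9.55 in control whole blood and was at least 30.1-fold lower in control plasma, and Btf3, a subunit of the nascent polypeptide-associated complex, stood at 9.12 and was at least 22.4-fold lower. Smok3a, a testis kinase, was at least 36.6-fold lower by 1 probe, while its other probe stood at 10.26 and 9.94.

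Where a probe of a gene passed 2-fold, the other probes of that gene did not all follow. Of 255 genes with at least 2 probes detected on both control arrays, 27 had at least 1 probe past 2-fold. For none were all probes past it in the same direction. Probe by probe, 2.68% of mRNA probes were higher and 2.84% lower. Speg, a muscle kinase, had 1 probe at 1.78 and another at -1.35. Canx, a chaperone of the endoplasmic reticulum, had 2 of 3 probes past 2-fold, with differences from -1.79 to -0.66. Probes of a gene can read different transcripts, and whether they do so here was not tested.

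The share of probes past 2-fold fell with the level of the probe. Of all probes with a mean log2 level up to 6, 15.4% passed, all 151 of them lower in control plasma, as the lowest detected levels of the 2 arrays allow no higher call there. The median log2 difference of these dim probes was -0.50, and their standard deviation of 0.45 was smaller than the 0.55 of probes with levels from 6 to 8. The share past 2-fold was 6.20% for levels from 6 to 8, 4.81% from 8 to 10, 3.43% from 10 to 12 and 1.76% above 12. The standard deviation above 12 was 0.37. Among LncRNAs above 12, 4 of 125 passed, and all 4 were higher in control plasma. Transcript length did not order the differences, with a Spearman rho of 0.01 over 2702 probes of the study's first LncRNA list, the only ones with a length here, and -0.02 over 2535 mRNA probes, which share both arrays.

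The HF pair was used to see which of these differences were found again in other mice. Of the 34 LncRNAs higher in control plasma, 27 were detected on both HF blood arrays, 14 of them at least 2-fold higher in HF plasma and 7 at least 2-fold lower. Of the 51 lower ones 19 were detected there, with 5 lower and 12 higher. Among 873 LncRNA probes detected on all 4 blood arrays 47.1% were higher and 24.9% lower in HF plasma, so the 14 of 27 (51.9%) and the 5 of 19 (26.3%) lay near what any LncRNA showed. Of the 68 higher mRNAs 48 were detected, with 24 higher and 16 lower in HF plasma, and of the 72 lower ones 32 were, with 13 (40.6%) lower and 11 higher, beside 39.6% higher and 30.8% lower among all 1664. Spearman's rho of the control and HF differences was 0.09 over the 873 LncRNA probes and 0.07 over the 1664 mRNA probes.

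Beyond those named above, the LncRNAs higher in plasma of both pairs included CA585643, at 12.64 and 14.33 in control mice, and CJ083178, at 8.08 and 9.87. Among mRNAs they included 1 probe of Fkbp8, a mitochondrial chaperone, at 9.65 and 11.85, and 1 of Plekhb1 at 7.80 and 10.15. A probe of Phf17, a subunit of histone acetyltransferase complexes, was also higher, at 12.90 and 14.74. For each of these genes the other probe detected on both control arrays lay within 2-fold. The log2 difference of that probe was 0.26 for Fkbp8, -0.42 for Phf17 and 0.18 for Plekhb1. Lower in plasma of both pairs were Nlrp12, an innate immune regulator of myeloid cells, at 8.71 and 7.37, Prok2, a chemokine-like peptide of neutrophils, at 10.30 and 9.10, and Enah, an actin regulator, at 16.36 and 15.28. These genes were picked after their values were seen.

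**Figure D5:**
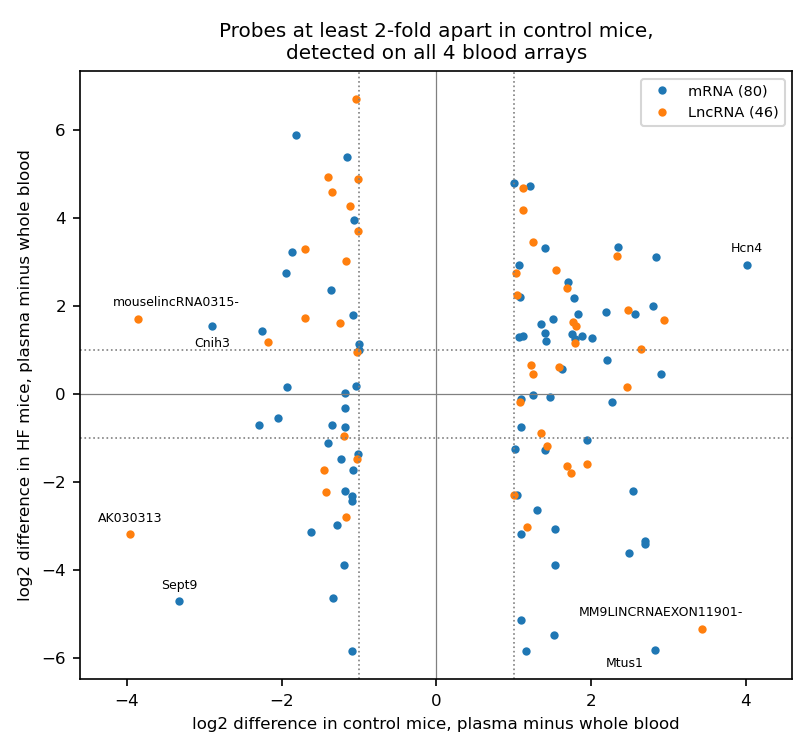
Log2 difference, plasma minus whole blood, in control mice (horizontal axis) and in HF mice (vertical axis), for the 46 LncRNA and 80 mRNA probes at least 2-fold apart in control mice and detected on all 4 blood arrays. Dotted lines mark 2-fold, and each point is 1 probe. Hcn4 is higher in plasma in both pairs, AK030313 and Sept9 are lower in both, and MM9LINCRNAEXON11901- and Mtus1 lie on opposite sides.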

How the data were processed

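RNA of 5 mice per group, as the microarray methods state it, was mixed, cleared of ribosomal RNA, labelled with Cy3 from random primers and hybridised by the authors to 1 array per tissue and condition, and Agilent Feature Extraction 11.0.1.1 read the images. The deposited files hold the background-subtracted signal intensity of each spot, its error and its flags, with probes designed on mm9. Genes were named from the study's lists of LncRNAs and mRNAs, and 3977 of 4093 mRNA probes had an accession in the current RefSeq table. Coordinates come from the study's supplementary lists, with starts moved by 1 because they are counted from 0.

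The log2 signals of the spots of each probe were averaged and quantile normalized over the 6 arrays (Python 3.11.15, numpy 2.4.6, pandas 2.3.3). A probe was called where it was detected on both arrays and differed at least 2-fold, the threshold of the study. Errors combine the spot errors of both arrays. A deposited joint table, holding these same signals for the 6 arrays without flags, was not used. Samples were grouped by their labels, and with 1 array per group no p-value was computed. The number of arrays limits the precision. No sample column was left without a group. The script was tested on simulated data. The alternatives were 4 other scalings, among them normexp with an offset of 50 (limma 3.58.1 in R 4.3.3), other detection rules, thresholds of 1.5-fold and 4-fold, a limit of 2 combined errors, bright probes only, and the LncRNAs of the study's first list. Named were the 3 markers, the 10 highest and 10 lowest LncRNAs and mRNAs, 3 in each direction detected on 1 array, the 4 listed genes with the highest mean level in each of 20 lists, the ultraconserved LncRNAs of the study's primer list. Other listed genes and ultraconserved transcripts, those found in both pairs and those with several probes were added after their values were seen. Some items that these rules select are not reported here. The members and gene lists were chosen with earlier results of these data known.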

Additional observations from a re-analysis of the deposited data

Results flagged for a closer look

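Some named transcripts were at least 2-fold apart in control mice and at least 2-fold apart the other way in HF mice, on both arrays of each pair. The difference between the pairs was not tested, since each pair is 2 arrays, and the pairs lay on different slides. In control plasma MM9LINCRNAEXON11901- was higher by 3.43 on the log2 scale, beside -5.33 in HF mice, and MM9LINCRNAEXON11859+ by 1.95, beside -1.59. Among mRNAs Mtus1 was higher by 2.82, beside -5.82, Acta2 by 2.70, beside -3.33, and Mov10 by 2.70, beside -3.42. Vegfa was higher by 2.55, beside -2.20, for 1 of its 2 probes. Apoe was higher by 1.09, beside -5.12.

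The opposite change was measured for mouselincRNA0315-, at -3.85 in control mice and 1.71 in HF mice, and for humanlincRNA1398-, at -2.17 and 1.19. It was also measured for Cnih3, at -2.90 and 1.55, for 1600014C10Rik, at -2.26 and 1.44, and for 1 of 3 probes of Acp5, at -1.94 and 2.75. The brightest probe of Acp5 stood at -0.20 in control mice and -2.09 in HF mice. Its remaining probe stood at -0.58 and -0.96, so for Acp5 the change of side rests on 1 probe. The ultraconserved transcript on chromosome 17 changed as well, at -1.01 and 4.89.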

How the results depend on the processing

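No paired analysis was possible because each group has 1 array. No count in control mice moved by over 1.5 times under the 75th percentile, quantile normalization of the 2 control or the 4 blood arrays, detection without outlier flags, or a limit of 2 combined errors. Counts are given below as LncRNAs higher and lower, mRNAs higher and lower, and listed genes higher and lower in control plasma, where the reported counts were 34 and 51, 68 and 72, and 9 and 4. With normexp they were 17 and 13, 35 and 16, and 4 and 0, and the bound of 2-fold held for 13 LncRNAs and 17 mRNAs of whole blood only and 16 mRNAs of plasma only. With no detection filter they were 625 and 663, 451 and 209, and 29 and 10. At 1.5-fold they were 91 and 146, 200 and 261, and 16 and 12, and at 4-fold 7 and 7, 17 and 8, and 2 and 0. Among probes with a mean level above the median they were 18 and 13, 33 and 19, and 3 and 2. With detection on all 4 blood arrays 19 LncRNAs and 32 mRNAs were lower, and 5 listed genes were higher and 2 lower. With the LncRNAs of the study's first list 63 were higher, and 50 were detected in whole blood only, 49 of them with the bound. In both pairs, under scalings chosen after seeing the data, normexp left 7 LncRNAs higher and 3 lower and 13 mRNAs higher and 5 lower. No named difference past 2-fold changed sign under the 4 other scalings, but many changed in size. Of 113 named differences, 56 moved by at least their own combined error with normexp. The 75th percentile moved 12 as far, quantile normalization of the 2 control arrays 13, and that of the 4 blood arrays 1. The median over all probes moved by less than 0.1 on the log2 scale under each of these scalings.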
